A study of Mus musculus with 12 samples.

Results

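The erythroid genes are 30 named genes of the red cell lineage, chosen by symbol for their roles in red cell formation. Earlier results of these data were known when they were chosen. They are followed here on 12 one-colour expression arrays of mouse MLL-AF9 acute myeloid leukemia. Of the 30 genes, 28 had a probe set that the platform annotation gives exactly 1 gene symbol, out of 22180 such genes on the array. Where a gene had several such probe sets, the one with the highest mean over the 12 arrays stood for it. The other 2 genes were not analysed here. They are Alas2, the erythroid enzyme of the first step of heme synthesis, which shares its probe set with another symbol, and Ahsp, the chaperone of free alpha-globin, which no single-symbol probe set carried. The 28 measured genes also passed a filter on dim genes, a mean of at least 4.72 log2 intensity, which left 17749 genes to be tested. Kel passed it only through its highest array, and the other 27 passed it on the remaining 11 arrays alone.

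The study asked how loss of AMPK, a kinase that senses low cellular energy, alters gene expression in leukemia that the MLL-AF9 fusion oncogene drives. Cells of C57BL/6J mice carrying MLL-AF9 were either AMPKfl/fl, called wild type (WT) in the labels, or AMPKΔ/Δ, called knockout (KO), and 50000 of them were injected into recipients irradiated with 10 Gy. When each recipient developed leukemia, 5000 GFP+ marrow cells were sorted, either without further selection (whole leukemia) or as L-GMP, the lineage-negative, c-Kit+, CD16/32+, CD34+ fraction that resembles granulocyte-macrophage progenitors. There were 3 arrays each of WT whole leukemia, KO whole leukemia, WT L-GMP and KO L-GMP. All 4 groups carry MLL-AF9, GFP and a transplant history, so no group is normal marrow. The labels do not name the AMPK subunit deleted, and they do not say that the 3 samples of a group come from separate mice, so the p-values reflect variation among these samples alone, part of which may be technical.

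Red cells arise from progenitors in which the transcription factors GATA1 and KLF1 switch on a common set of genes. Under erythropoietin these cells take up iron through the transferrin receptor, make heme in and around the mitochondrion, load it into globin, and rebuild their membrane on a spectrin and ankyrin skeleton anchored to the anion exchanger band 3. The lineage cocktail used to sort progenitors usually removes erythroid cells, and the GFP+ sort of whole leukemia selects on GFP and not on lineage.

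The erythroid genes were high together on 1 of the 12 arrays. On KO whole leukemia array 2 each of the 28 measured genes had its highest value of the 12 arrays, where 16.1% of all genes tested did. The genes were listed with the standing of this array known, so their counts there are a description. Kel was tested only through its value there, and each of the other 27 genes was also highest there. The 28 genes lay there between 1.25 and 6.66 log2 above the mean of the 3 WT whole leukemia arrays, with a median of 3.51, and 28 of 28 were over 1 log2 above it, where 3.46% of all genes were. The other KO whole leukemia arrays had medians of 0.03 (array 1) and 0.34 (array 3) over the same 28 genes. Between the KO and WT whole leukemia groups 0 of the 28 genes passed the test, in a comparison in which 0% of all genes passed it. The test was limma on log2 intensity with 1 mean per group, at an adjusted p (Benjamini-Hochberg over the 17749 genes) under 0.05.

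**Figure D1:**
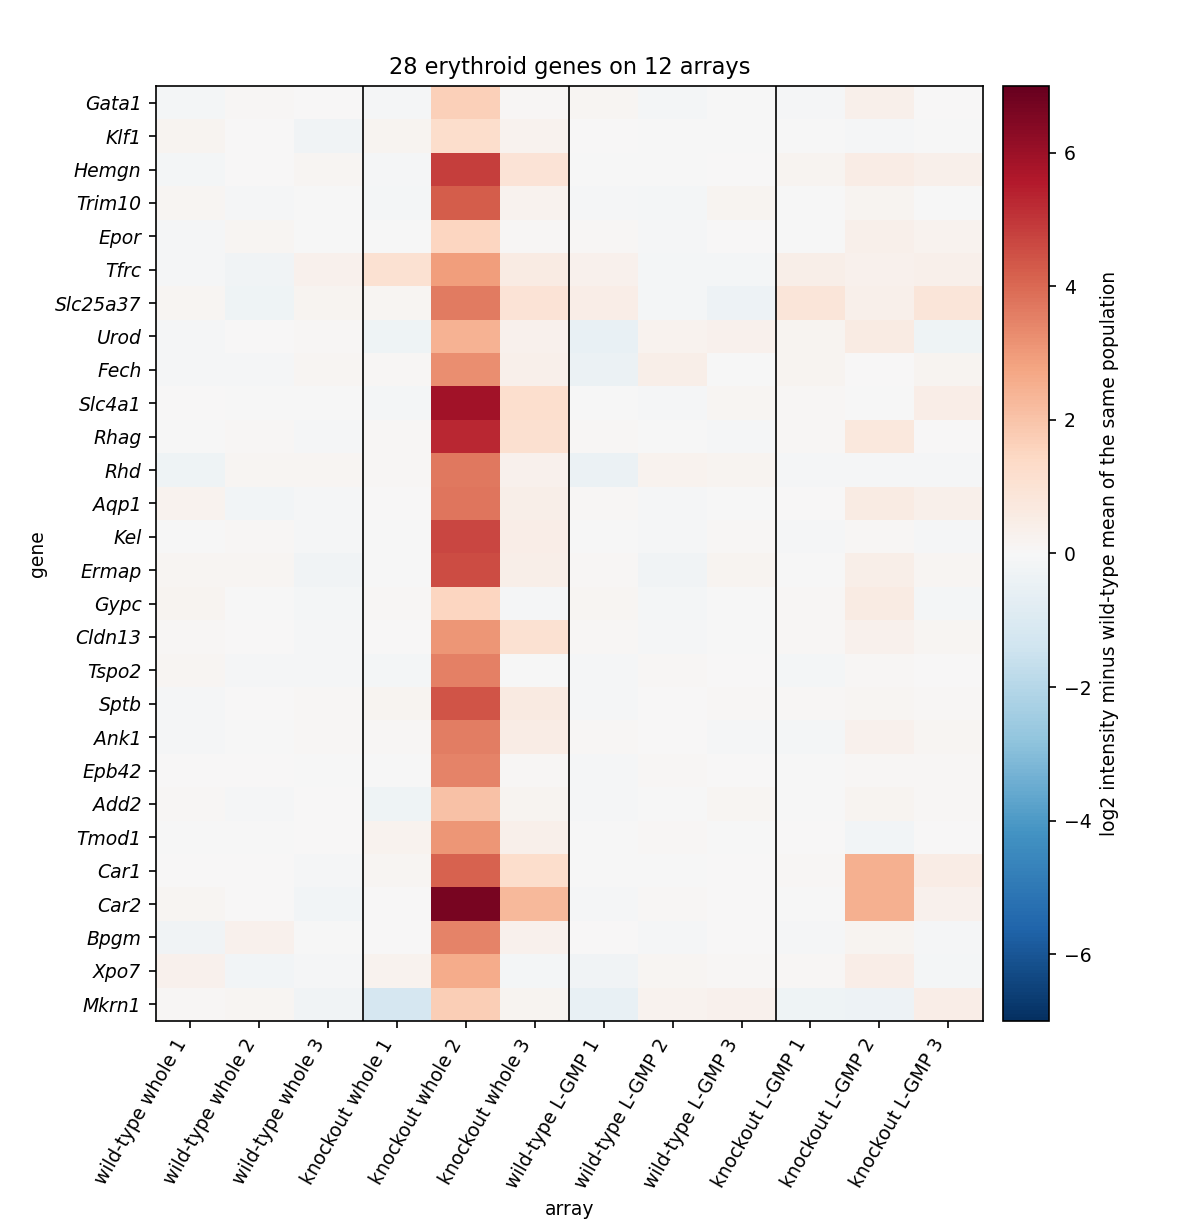
Heat map of the 28 measured erythroid genes (rows) on the 12 arrays (columns, grouped by genotype and population). Colour gives the log2 intensity minus the wild-type mean of the same population, from -7 (blue) to 7 (red). The column of knockout whole leukemia array 2 is red for all 28 genes, from 1.25 for Klf1 to 6.66 for Car2, and knockout whole leukemia array 3 and knockout L-GMP array 2 show paler red in a few rows.

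This array stood apart from the other 11 in more than the erythroid genes. It lay at 67.4 on the first principal component of all genes tested (32.4% of the variance), and the remaining arrays lay at -24.2 to 18.5. Correlations between arrays ran from 0.902 to 0.986, and the lowest was 0.943 without it. Array medians were close, 36.9 to 39.3 in linear intensity, so the arrays were alike in their general level. Prkaa1, the catalytic alpha 1 subunit of AMPK, was lower on that array (7.45) than on any WT whole leukemia array (7.72 to 8.69), as on the other KO whole leukemia arrays (7.40 and 6.95), with an adjusted p = 0.592 by limma for the groups. Differences of the erythroid genes between genotypes in whole leukemia are therefore given with and without array 2.

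The promoters of 4 of the genes whose levels ranged most show the kind of sequence that GATA1 is known to bind. They are the 250 bases before an annotated transcription start from RefSeq on GRCm38.p6, given 5′ to 3′ on the gene's strand. The RefSeq gene spans of Rhag, Ermap and Kel begin within these stretches, at 40811099, 119190013 and 41704334. For these genes the start used therefore lies inside the gene's span, and distances below are from the start used. Rhag lies at chr17:40810899-40811148 on the plus strand. Hemgn lies at chr4:46404184-46404433, Ermap at chr4:119189996-119190245 and Kel at chr6:41704326-41704575, each on the minus strand. Capitals mark a GATA hexamer (AGATAA or TGATAA or AGATAG or TGATAG, searched on both strands).
Rhag: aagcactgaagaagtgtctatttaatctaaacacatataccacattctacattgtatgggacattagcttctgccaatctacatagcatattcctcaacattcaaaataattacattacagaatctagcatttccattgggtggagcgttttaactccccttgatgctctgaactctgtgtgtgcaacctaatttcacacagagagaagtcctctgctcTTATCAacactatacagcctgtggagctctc
Hemgn: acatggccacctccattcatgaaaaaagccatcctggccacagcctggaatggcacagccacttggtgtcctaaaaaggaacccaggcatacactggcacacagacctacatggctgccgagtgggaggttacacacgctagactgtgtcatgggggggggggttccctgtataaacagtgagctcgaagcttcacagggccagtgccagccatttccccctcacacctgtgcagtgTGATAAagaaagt
Ermap: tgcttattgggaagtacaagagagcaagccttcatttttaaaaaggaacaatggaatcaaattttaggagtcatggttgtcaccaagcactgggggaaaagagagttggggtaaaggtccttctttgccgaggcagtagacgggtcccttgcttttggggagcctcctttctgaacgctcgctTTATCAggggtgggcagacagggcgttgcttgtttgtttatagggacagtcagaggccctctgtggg
Kel: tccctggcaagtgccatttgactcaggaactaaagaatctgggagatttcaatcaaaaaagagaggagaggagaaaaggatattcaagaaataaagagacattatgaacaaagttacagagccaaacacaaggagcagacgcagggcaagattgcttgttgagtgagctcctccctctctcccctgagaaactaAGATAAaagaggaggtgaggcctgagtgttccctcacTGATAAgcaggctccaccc
The hexamer began 31 bases before the start in Rhag, 13 in Hemgn and 67 in Ermap. Kel held 2, which began 56 and 19 bases before the start. RefSeq's table gave promoters for 20 of the 30 genes, 22 promoters in all, and 11 of these (50%) held a GATA hexamer, against 26.5% of all 32851 promoters of the same length. A match of letters is a description and not evidence of binding.

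Among the regulators, Hemgn, a nuclear protein of developing blood cells that GATA1 regulates, had the widest range. Its log2 intensities in WT whole leukemia were 4.89, 5.05 and 5.19, and in KO whole leukemia 4.96, 9.87 and 6.02. In L-GMP it measured 4.98, 4.97 and 5.04 in WT and 5.19, 5.51 and 5.37 in KO. Thus KO whole leukemia arrays 2 and 3 lay above every WT array, array 1 lay within the WT range, and the 3 KO L-GMP arrays lay above the 3 WT ones by small steps. The difference between genotypes was 1.91 log2 in whole leukemia (SE 0.93, adjusted p = 0.829 by limma) and 0.45 (SE 0.25) without array 2. Trim10, a tripartite-motif protein needed for terminal erythroid differentiation in mouse cells, measured 5.34, 5.14 and 5.20 in WT whole leukemia and 5.09, 9.46 and 5.49 in KO whole leukemia. Its L-GMP values were 5.03, 4.97 and 5.33 in WT and 5.07, 5.29 and 5.08 in KO. Apart from array 2, at 4.23 log2 above the WT mean, its arrays stayed within a narrow band.

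The 2 master regulators had the smallest range among the regulators. Gata1, the founding erythroid GATA factor, measured 4.98, 5.19 and 5.16 in WT whole leukemia and 5.04, 6.76 and 5.18 in KO whole leukemia. Its WT L-GMP values were 5.22, 4.94 and 5.05, and its KO L-GMP values 5.02, 5.41 and 5.12. The group difference in whole leukemia was 0.55 log2 (SE 0.36), and it was -0.0031 (SE 0.14) without array 2, so 1 array carried it. Klf1, the factor that drives adult beta-globin and many membrane genes, measured 5.31, 5.15 and 4.89 in WT whole leukemia and 5.29, 6.37 and 5.35 in KO whole leukemia. In L-GMP it measured 5.31, 5.27 and 5.26 in WT and 5.23, 5.19 and 5.25 in KO, where the genotypes did not overlap although they differed by only -0.05 log2. On array 2 Gata1 was 3.13-fold and Klf1 2.37-fold above the WT mean in linear terms, while Hemgn was 28.4-fold above it. Near background arrays can compress differences, so folds of dim genes may be understated, which was not tested here. The WT whole leukemia means of the 3 genes were alike, at 5.11 for Gata1, 5.12 for Klf1 and 5.04 for Hemgn.

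Of the genes for erythropoietin signalling and iron, Tfrc, the transferrin receptor that brings iron into the cell, came nearest to a difference between genotypes that did not rest on array 2. Its values were 7.22, 7.04 and 7.57 in WT whole leukemia and 8.32, 10.18 and 7.87 in KO whole leukemia. In L-GMP they were 7.77, 7.35 and 7.36 in WT and 7.89, 7.79 and 7.86 in KO. In both populations every KO array lay above every WT array. The difference was 1.52 log2 in whole leukemia (SE 0.46, unadjusted p = 0.00806, adjusted p = 0.800 by limma) and 0.82 (SE 0.19, adjusted p = 0.758) without array 2, and in L-GMP it was 0.35 (SE 0.46). It passed the test in neither population. Proliferating cells of any lineage also carry this receptor, and its mean on the 11 arrays other than array 2 was 7.64 log2.

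Slc25a37, mitoferrin 1, which carries iron into the mitochondrion for heme synthesis, also had its highest values among KO samples. It measured 8.29, 7.86 and 8.39 in WT whole leukemia and 8.31, 11.80 and 9.13 in KO whole leukemia, and 8.62, 8.03 and 7.79 in WT L-GMP against 9.004, 8.48 and 8.99 in KO L-GMP. KO whole leukemia arrays 2 and 3 lay above the WT arrays and array 1 did not, and in L-GMP the genotypes overlapped through KO array 2. The difference was 1.56 log2 in whole leukemia (SE 0.69), 0.54 (SE 0.31) without array 2, and 0.68 (SE 0.69) in L-GMP. Epor, the erythropoietin receptor, measured 5.45, 5.70 and 5.50 in WT whole leukemia, 5.50, 7.06 and 5.62 in KO whole leukemia, 5.60, 5.40 and 5.52 in WT L-GMP, and 5.48, 5.86 and 5.73 in KO L-GMP. Without array 2 its whole leukemia arrays overlapped fully, at a difference of 0.0068 log2 (SE 0.13).

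**Figure D2:**
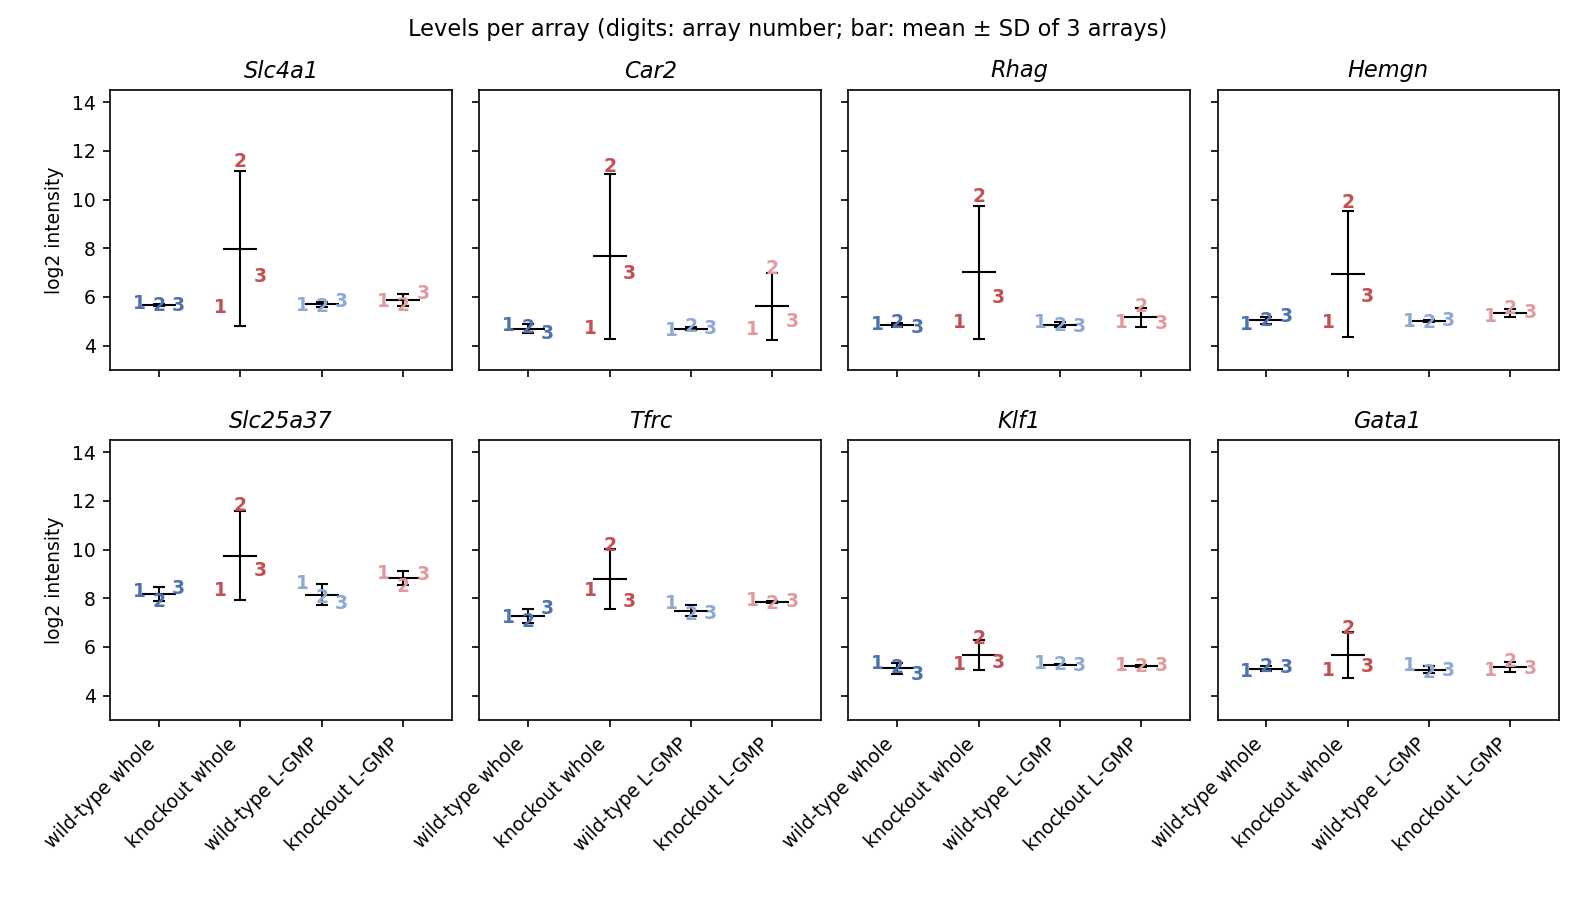
Log2 intensity of Slc4a1, Car2, Rhag, Hemgn, Slc25a37, Tfrc, Klf1 and Gata1 in the 4 groups. Digits mark arrays 1, 2 and 3 of each group, and bars give the mean ± SD (n = 3). In knockout whole leukemia the digit 2 lies above the other digits in every panel, from 6.37 for Klf1 to 11.80 for Slc25a37. Car2 is also raised on knockout whole leukemia array 3, at 6.96, and on knockout L-GMP array 2, at 7.17.

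Of the heme enzymes, Urod, which removes carboxyl groups from uroporphyrinogen, measured 7.12, 7.23 and 7.26 in WT whole leukemia, 6.91, 9.63 and 7.47 in KO whole leukemia, 6.47, 7.24 and 7.27 in WT L-GMP, and 7.21, 7.56 and 6.67 in KO L-GMP. Fech, the enzyme that inserts iron to complete heme, stood at 10.40 on array 2, against 6.70 to 7.51 on the other 11. Every cell makes heme for its cytochromes, and neither enzyme is particular to red cells. Their whole leukemia differences were 0.80 (SE 0.57) and 1.21 log2 (SE 0.65), and without array 2 they were -0.0082 (SE 0.30) and 0.21 (SE 0.20). Of the other heme genes listed (synthesis, transport and breakdown), 14 were tested and 8 had their highest value on array 2, where 16.1% of all genes did. Examples there are Alad at 9.24, where the others lay at 6.02 to 7.13, Cpox at 9.28 and the biliverdin reductase Blvrb at 9.62. Alas1, the enzyme of the first step of heme synthesis in other tissues, and the other biliverdin reductase, Blvra, lay below every WT whole leukemia array there, at 7.86 against 8.26 to 9.07 and at 7.10 against 7.56 to 7.66. Of those 14, 0 passed the test between genotypes in whole leukemia. Their median difference was 0.43 log2, and 0.03 without array 2.

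The 9 membrane transporters, channels and blood group proteins held the steepest contrasts after Car2. Slc4a1, band 3, the chloride and bicarbonate exchanger that makes up much of the red cell membrane, measured 5.72, 5.66 and 5.66 in WT whole leukemia. In KO whole leukemia it measured 5.56, 11.58 and 6.83. Its WT L-GMP values were 5.64, 5.61 and 5.82, and its KO L-GMP values 5.80, 5.65 and 6.14. The value on array 2 was 59.8-fold the WT mean in linear terms, array 3 was 2.23-fold it, and array 1 lay just below every WT array. The genotype difference of 2.31 log2 had an SE of 1.15 (adjusted p = 0.829 by limma), and 0.52 (SE 0.30) remained without array 2.

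Rhag, the Rh-associated ammonia and gas channel, measured 4.85, 4.95 and 4.76 in WT whole leukemia, 4.93, 10.12 and 5.96 in KO whole leukemia, 4.96, 4.84 and 4.79 in WT L-GMP, and 4.96, 5.60 and 4.91 in KO L-GMP. Its partner Rhd, the Rh blood group protein, measured 5.40, 5.88 and 5.87 in WT whole leukemia and 5.80, 9.39 and 6.04 in KO whole leukemia. In L-GMP Rhd measured 5.29, 5.93 and 5.90 in WT and 5.63, 5.63 and 5.60 in KO. Rhag therefore had raised arrays among KO samples of both populations, while Rhd in KO L-GMP stayed within the WT range. Kel, the Kell blood group metalloprotease, measured 4.64, 4.72 and 4.58 in WT whole leukemia and 4.62, 9.31 and 5.11 in KO whole leukemia, and its 6 L-GMP arrays lay between 4.62 and 4.78. Ermap, the erythroblast membrane-associated protein of the Scianna blood group, measured 5.54, 5.55 and 5.17 in WT whole leukemia, 5.40, 10.01 and 5.83 in KO whole leukemia, 5.45, 5.12 and 5.60 in WT L-GMP, and 5.35, 5.80 and 5.51 in KO L-GMP. For both, array 2 stood far above the other 11 and array 3 came next.

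Cldn13, a claudin found in mouse erythroid cells, measured 5.04, 4.97 and 4.85 in WT whole leukemia and 4.98, 8.03 and 6.04 in KO whole leukemia. In L-GMP it measured 5.08, 4.93 and 4.96 in WT and 5.09, 5.28 and 5.14 in KO, every KO array above every WT array. Its whole leukemia difference was 1.40 log2 (SE 0.56, unadjusted p = 0.0315, adjusted p = 0.827 by limma), and 0.56 (SE 0.24) without array 2. Gypc, glycophorin C, which ties the membrane to protein 4.1, was among the least raised, with 5.65, 5.45 and 5.34 in WT whole leukemia, 5.54, 6.98 and 5.41 in KO whole leukemia, 5.51, 5.23 and 5.36 in WT L-GMP, and 5.45, 5.92 and 5.22 in KO L-GMP. On array 2 the water channel Aqp1 stood at 9.20 (5.23 to 5.87 on the others) and Tspo2, an erythroid protein of the translocator family, at 8.54 (4.77 to 5.15). These 9 genes had a median difference of 1.40 log2 in whole leukemia and 0.22 without array 2, with 0 passing the test.

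In the membrane skeleton, Sptb, erythroid beta-spectrin, measured 5.10, 5.23 and 5.28 in WT whole leukemia, 5.39, 9.61 and 5.82 in KO whole leukemia, 5.15, 5.27 and 5.30 in WT L-GMP, and 5.31, 5.40 and 5.32 in KO L-GMP. Tmod1, which caps the short actin filaments of the skeleton, measured 5.23, 5.22 and 5.28 in WT whole leukemia, 5.47, 8.33 and 5.57 in KO whole leukemia, 5.35, 5.49 and 5.36 in WT L-GMP, and 5.40, 5.19 and 5.44 in KO L-GMP. In whole leukemia both genes lay higher on every KO array than on any WT array. The differences were 1.74 (SE 0.84) and 1.21 log2 (SE 0.59), and 0.40 (SE 0.13, unadjusted p = 0.0107, adjusted p = 1.00 by limma) and 0.28 (SE 0.10) without array 2. The ankyrin Ank1 reached 8.92 on array 2 (5.24 to 5.87 on the others), protein 4.2, encoded by Epb42, reached 8.51 (4.84 to 5.13), and beta-adducin, Add2, reached 7.62 (5.27 to 5.77).

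Car2, a carbonic anhydrase, had the widest range of the 28 genes, and both Car1 and Car2 were raised on more arrays than array 2. These enzymes interconvert carbon dioxide and bicarbonate, and Car1 and Car2 are the abundant forms of the red cell, with Car2 also made by other marrow cells. Car2 measured 4.85, 4.75 and 4.49 in WT whole leukemia and 4.70, 11.35 and 6.96 in KO whole leukemia. In L-GMP it measured 4.62, 4.77 and 4.70 in WT and 4.66, 7.17 and 5.01 in KO. Car1 measured 4.60, 4.59 and 4.49 in WT whole leukemia, 4.70, 8.71 and 5.77 in KO whole leukemia, 4.57, 4.54 and 4.62 in WT L-GMP, and 4.64, 7.08 and 5.09 in KO L-GMP. For Car1 each KO array lay above each WT array of its population, and for Car2 the first KO array of each population lay within the WT range. Car2 on array 2 was 101-fold the WT mean, and on KO L-GMP array 2 it was 5.56-fold. The whole leukemia differences were 2.98 (SE 1.31) for Car2 and 1.83 log2 (SE 0.88) for Car1, with adjusted p = 0.829 by limma for both. Without array 2 they were 1.13 (SE 0.75) and 0.67 log2 (SE 0.59). Bpgm, which makes the 2,3-bisphosphoglycerate that loosens oxygen from hemoglobin, reached 9.09 on array 2 and lay at 5.36 to 5.92 elsewhere.

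Mkrn1 and Xpo7, are used late in red cell maturation. Mkrn1, a ubiquitin ligase, measured 8.23, 8.28 and 7.89 in WT whole leukemia and 6.97, 9.83 and 8.32 in KO whole leukemia, and 6.92, 7.69 and 7.76 in WT L-GMP against 7.13, 7.09 and 7.90 in KO L-GMP. Its KO whole leukemia arrays lay on both sides of WT, 1 of them 1.16 log2 under the WT mean, and the difference of 0.24 log2 (SE 0.57) was -0.49 (SE 0.41) without array 2. Xpo7, a nuclear exporter that erythroblasts use as they condense the nucleus, reached 9.89 on array 2 and lay at 6.95 to 7.65 on the others.

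Taking the 28 genes in whole leukemia, KO was above WT for 28, where 49.6% of all genes were, and the median difference was 1.38 log2 against -0.0016 for all genes. At an unadjusted p under 0.05 there were 5 (Tfrc, Cldn13, Klf1, Car2 and Slc25a37), all higher, where 2.43% of all genes were. Between genotypes, the arrays of 4 did not overlap, namely Tfrc, Sptb, Car1 and Tmod1, all higher, where 5.46% of all genes were. Without array 2 the difference was above 0 for 22 of the 28, against 51.6% of all genes, and the median was 0.20. Of the 28, 4 then reached an unadjusted p under 0.05 (2.27% of all genes), all higher, 4 did not overlap, all higher (10.5%), and 0 passed the test (0%). The median SE of the 28 differences was 0.70 log2 with that array and 0.19 without it.

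Array by array, KO whole leukemia array 3 had 23 of the 28 genes above every WT whole leukemia array and 0 below every one, where 29.7% of all genes lay above and 24.9% below. Its differences from the WT mean ran from -0.13 for Xpo7 to 2.26 for Car2, and 5 genes exceeded 1 log2 (Car2, Car1, Slc4a1, Rhag and Cldn13), where 0.721% of all genes did. KO whole leukemia array 1 had 4 above and 6 below, with 26.2% of all genes above and 27.4% below. The 3 arrays of the group thus fell at 3 levels for these genes. In bulk RNA, fewer cells of a type and less RNA per cell cannot be told apart.

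**Figure D3:**
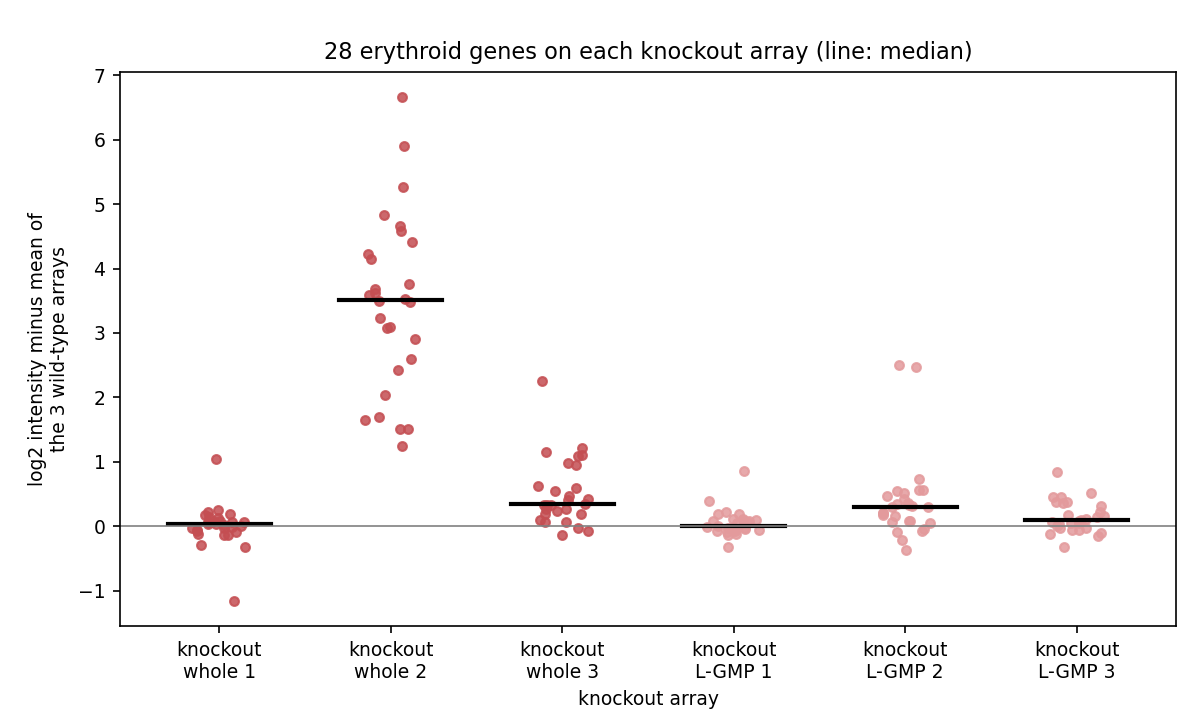
Log2 intensity of each of the 28 erythroid genes (points) minus the mean of the 3 wild-type arrays of the same population, for the 6 knockout arrays; black lines are medians over the genes. Knockout whole leukemia array 2 has a median of 3.51, and the other 5 arrays have medians of at most 0.34, with Car1 and Car2 as the 2 points above 2 on knockout L-GMP array 2.

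In L-GMP the question was whether KO progenitors differ from WT ones. KO was above WT for 22 of the 28 genes (54.8% of all genes), with a median difference of 0.15 log2 against 0.02 for all genes. Of the 28, 0 passed the test (0.00563% of all genes did, 1 gene), and 0 reached an unadjusted p under 0.05 (4.13%). The groups share 1 estimate of the spread, and with KO whole leukemia array 2 left out of it 1 of the 28, Slc25a37, reached an unadjusted p under 0.05 (5.23% of all genes), at 0.68 log2 (SE 0.28, unadjusted p = 0.0352, adjusted p = 0.945 by limma). The 5 genes whose KO arrays all lay above the WT arrays were Car1, Tfrc, Hemgn, Cldn13 and Sptb (5.82% of all genes), and Klf1 was the only one of the 28 whose KO arrays all lay below (3.66%). The difference was 1.03 log2 (SE 0.88) for Car1, and 0.29 without KO L-GMP array 2. KO L-GMP array 2 had 19 of the 28 above every WT L-GMP array, where 28.1% of all genes were, with Car1 and Car2 the 2 genes above 1 log2 (1.21%). Slc4a1 was at 5.65 there, within the WT range. The other KO L-GMP arrays had 7 (23.9% of all genes) and 12 (32.4%) of the 28 above, with medians of -0.0029 and 0.09 log2.

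Between populations the erythroid genes hardly differed in WT. Of the 28, 22 had a mean under 6 log2 on the 11 arrays other than KO whole leukemia array 2. Array medians over all probe sets were 5.20 to 5.30 log2, so most of the 28 were dim there. The fit did not pair the arrays by number, although WT arrays of the same number correlated across populations, so its SEs and p-values ignore any pairing. L-GMP was above whole leukemia for 12 of the 28 genes (48.8% of all genes) and below for 16, with a median of -0.03 log2. Of the 28, 0 passed the test (0% of all genes) and 0 reached an unadjusted p under 0.05 (2.5%). Mkrn1 was the largest, at -0.67 log2 (SE 0.57), and Mkrn1 and Epb42 were lower on every L-GMP array than on any whole leukemia array, where 5.4% of all genes were. Tmod1 was the 1 gene higher on every L-GMP array (4.89% of all genes). In KO, L-GMP was above whole leukemia for 0 of the 28 genes (52.4% of all genes), with a median of -1.17 log2. Again 0 passed (0% of all genes), and 0 reached an unadjusted p under 0.05 (7.39%). Rhd, Tmod1 and Klf1 lay lower on every L-GMP array (4.66% of all genes). Without array 2 that median was -0.10 and 6 genes were higher in L-GMP. The test of whether the genotype difference itself depended on the population called 0 of the 28 (0% of all genes), and 0 reached an unadjusted p under 0.05 (2.06%). It was above 0 for 0 of the 28 (54.8% of all genes), with a median of -1.15 log2, or -0.05 without array 2.

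The globins themselves were read mostly by probe sets that carry several globin symbols, and no single globin gene is named from these. Among these, alpha-globin probe set 17248276 measured 10.76, 6.20 and 6.48 in WT whole leukemia and 6.63, 13.04 and 12.01 in KO whole leukemia, with 6.24 to 7.24 in WT L-GMP and 6.86, 7.69 and 9.18 in KO L-GMP. The beta-globin probe set 17481232 measured 10.89, 4.48 and 6.17 in WT whole leukemia and 6.68, 12.54 and 11.73 in KO whole leukemia. Thus WT whole leukemia array 1, at the WT baseline for the 28 genes, was high for globin on both probe sets, and so was KO whole leukemia array 3, whose 28 genes had a median of 0.34 log2 above WT. Of 4 single-symbol globins tested, 2 were highest on array 2 (16.1% of all genes). These were the theta-globin Hbq1b at 9.92 against 5.65 to 6.43 elsewhere and Hbq1a at 7.23 against 4.58 to 5.26. Hbb-y, an embryonic globin, and Hbb-bh2 were not raised there, at 4.72 and 4.75, against 4.67 to 4.94 and 4.77 to 4.94 in WT whole leukemia.

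The other erythroid genes listed followed array 2 in part. Of 25 tested genes for membrane, skeleton and enzymes, 19 had their highest value there (16.1% of all genes). Among the 19 were Tent5c at 9.80, the ubiquitin ligase Ube2o at 9.77, the amino acid transporter Slc43a1 at 9.50 and the porphyrin exporter Abcg2 at 8.56. For Abcg2 every KO array lay above every WT array of its population. Its whole leukemia difference was 0.89 log2 without array 2 (SE 0.24, adjusted p = 0.882 by limma). Of the 25 genes, 14 were above WT in whole leukemia without array 2 (51.6% of all genes). Of 18 transcription factors and cofactors, 7 were highest on array 2 (16.1% of all genes) and 7 lay there below every WT whole leukemia array (35.4%). Gfi1b, a repressor needed for erythroid and megakaryocyte cells, was at 9.21 (5.70 to 6.64 elsewhere), and Sox6, which silences embryonic globin, at 7.73. Zfpm1, the GATA1 partner FOG1, was at 7.35 and Tal1, a partner of GATA1 in its DNA-bound complex, at 6.52. Myb, a factor of immature progenitors, was at 8.87 there, against 10.69 to 11.26 on the other 11 arrays, and Lyl1 at 6.32 against 6.65 to 7.84. No gene of these 2 lists passed the test in whole leukemia, and the median differences of 0.64 and 0.09 log2 were 0.03 and -0.03 without array 2.

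Of 10 tested genes of erythropoietin receptor signalling, 2 had KO whole leukemia arrays that all lay above the WT arrays (5.46% of all genes), and Stat5b had arrays that all lay below (5.73%). Pim1, a survival kinase induced by STAT5, measured 6.53, 6.57 and 6.46 in WT whole leukemia and 7.49, 9.21 and 7.34 in KO whole leukemia (difference 1.49 log2, SE 0.43, adjusted p = 0.740 by limma, and 0.89, SE 0.25, without array 2). Cish, a STAT5-induced inhibitor of cytokine signalling, measured 5.65, 5.40 and 6.12 against 6.46, 7.41 and 6.13 (0.94 log2, SE 0.31, adjusted p = 0.827 by limma, and 0.57, SE 0.24, without array 2). Neither passed the test. Many cytokine receptors use STAT5, so these genes are not specific to erythropoietin. Of the 10 genes 7 were above WT (49.6% of all genes), with a median of 0.05 log2, and 5 without array 2 (51.6%). Of 11 iron genes 7 were above WT (49.6% of all genes), with a median of 0.06, and 9 without array 2 (51.6%).

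Markers of other cell types were read on the same arrays. The mean log2 intensity of 20 neutrophil genes was 10.59 on KO whole leukemia array 2 and 6.51 to 9.48 on the other 11. Of the 20, 18 had their highest value on array 2, where 16.1% of all genes did. The mean of 21 monocyte and macrophage genes was 7.34 on array 2, 7.63 and 7.98 on the other KO whole leukemia arrays and 8.23 to 8.69 in WT whole leukemia. On array 2, 16 of the 21 lay below every WT whole leukemia array, where 35.4% of all genes did. Among 9 T and NK cell genes the mean was 6.06 on array 2, against 5.07 to 5.81 elsewhere, with Cd3d at 8.50. Of the 9, 4 were highest on array 2 (16.1% of all genes), and 1 lay there below every WT whole leukemia array (35.4%). The 14 megakaryocyte genes, which share GATA1 with the erythroid lineage, had means of 5.22 to 5.53 on all 12 arrays. Of the 14, 3 were highest on array 2, near the share of all genes (16.1%). The part of these lineages in the erythroid values was not tested.

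**Figure D4:**
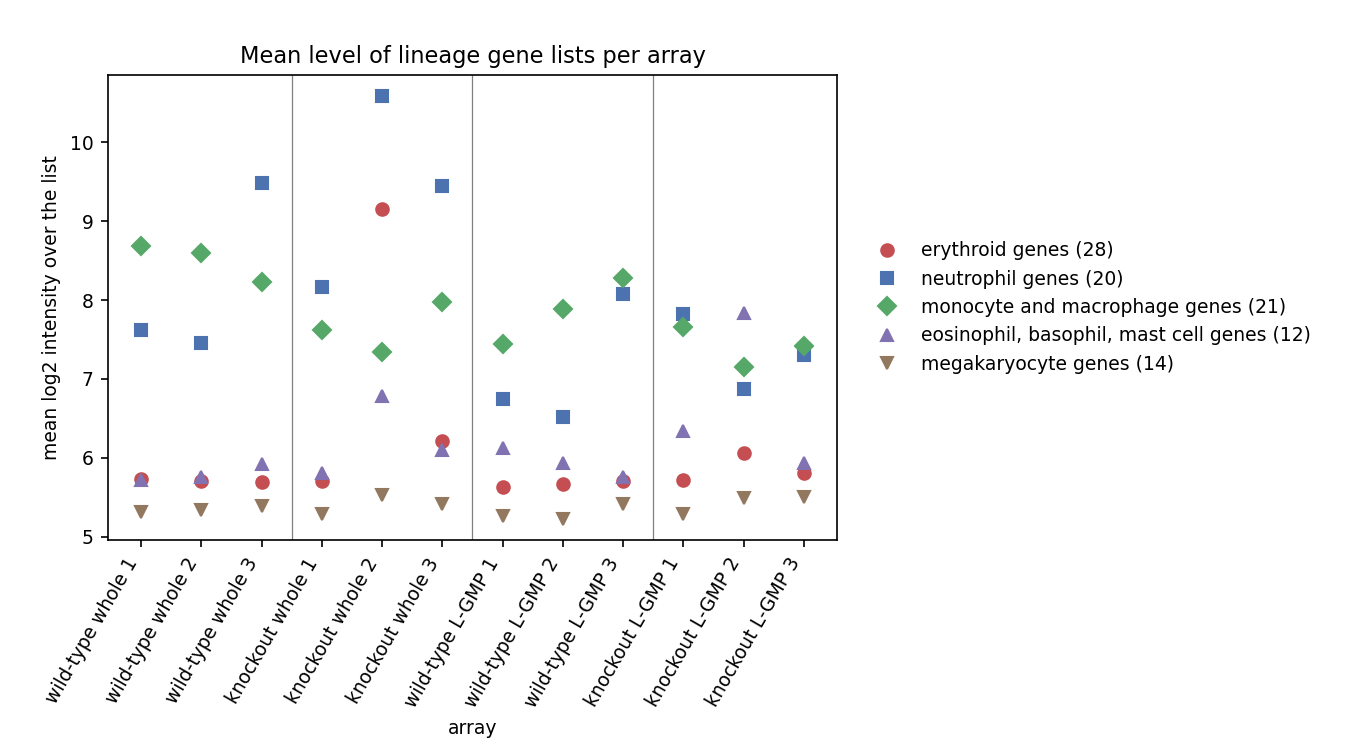
Mean log2 intensity on each of the 12 arrays for 5 gene lists: the 28 erythroid genes and genes of neutrophils (20), monocytes and macrophages (21), eosinophils, basophils and mast cells (12) and megakaryocytes (14). On knockout whole leukemia array 2 the erythroid list stands at 9.16 and the neutrophil list at 10.59, while the megakaryocyte list stays at 5.53.

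On KO L-GMP array 2, where Car1 and Car2 were raised, the 12 eosinophil, basophil and mast cell genes had a mean of 7.84, against 5.72 to 6.79 on the other 11 arrays. Of the 12, 8 had their highest value there, where 12.9% of all genes did. Prg2, the eosinophil major basic protein, was at 11.92 there and at 11.38 on KO whole leukemia array 2, against 5.45 to 8.85 on the other 10 arrays. Among the genes of the sort, Cd34 measured 9.45 to 10.05 in L-GMP, 8.35 to 9.38 in WT whole leukemia and 5.54 to 7.05 in KO whole leukemia. The L-GMP arrays of both genotypes thus held the CD34 transcript that their gate selects. The other genes of the sort did not all follow Cd34. In WT, L-GMP less whole leukemia was -0.32 log2 for Fcgr3 (SE 0.17) and -0.05 for Fcgr2b (SE 0.29). In KO the values were 0.08 for Fcgr3 and 0.46 for Fcgr2b. For Kit the difference was 0.56 log2 in WT and 1.14 in KO (SE 0.47 for both). None of these differences passed the test. The part of eosinophils, basophils and mast cells in the values of Car1 and Car2 was not tested.

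Genes outside the list followed the same profile closely. Over the 12 arrays, the genes with the highest Pearson correlation to the mean of the 28 standardised profiles were Nxpe2 (0.997) and Tspan33 (0.996), followed by Btnl10, Paqr9, Prxl2a, Apol11b, Asb17os, Tspan8, Slc38a5, Cd36, Adcy6, Hbq1b, Sox6, Arhgef12 and Cldn6, the last at 0.989. These correlations rest on 1 array: without it those of the 15 genes ran from 0.382 (Arhgef12) to 0.910 (Tspan33). By their mean on the other 11 arrays, Nxpe2, Paqr9, Tspan8, Slc38a5, Cd36, Adcy6 and Cldn6 lay under the filter of 4.72 log2. They were therefore tested only through array 2. Cd36, a fatty acid receptor, was at 9.45 on array 2 and 4.46 to 4.70 elsewhere, whereas Tspan33, a tetraspanin of developing red cells, was also raised on array 3, at 5.81 against 4.98 to 5.29 on the other 10. Ranked by the step from array 2 down to the next highest array, the 28 genes filled 10 of the first 20 places among all genes tested, 17 of the first 50 and 22 of the first 100. Kel, at rank 5, was tested only through array 2. The list was chosen with the standing of that array known, so these ranks are a description. The first place was held by Apol11b, with a step of 5.43 log2, and Slc4a1 had rank 3 with 4.75. Klf1 had the smallest step of the 28, 1.02 log2, at rank 251.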

How the data were processed

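Each array measured amplified RNA (NuGEN Pico WTA V2, biotin label) from 5000 sorted cells, per the labels' protocols. The deposited values are linear intensities for 33794 probe sets on 12 arrays, from 18.0 to 9108. Array medians of the deposited intensity values lay between 36.9 and 39.3. Neither the scanner software nor the normalization is given in the sources used here. Values were taken to log2 with no scaling and no pseudocount.

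The platform annotation gave 1 symbol to 23521 probe sets, several to 1814 and none to 8459. Of the Entrez identifiers 99.2% were in the RefSeq gene table, which changed 0 symbols. Genes with a mean below 4.72 log2, the 25th percentile of probe sets, were left out (4431 genes).

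All 4 groups were fitted in 1 limma model (limma 3.58.1, R 4.3.3; lmFit and eBayes) with adjustment over 17749 genes. The fit was checked on simulated arrays with known changes. The number of arrays limits the precision: the median SE of a group difference was 0.15 log2, and the smallest p of an exact two-sided permutation test between groups of 3 is 0.1. The members, gene lists, tests and alternatives were chosen with earlier results of these data known, and the standing of knockout whole leukemia array 2 was among them, so its values are a description.

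Genes given with every array's value are the 10 of widest range, the 5 of lowest p in each pairwise comparison, and Gata1, Klf1, Epor and Tfrc. Of other lists up to 4 genes of lowest p are named. Genes of other lists given for their level on single arrays, the sort genes apart, were chosen after their values were seen. Lists of B cell, granulocyte-macrophage progenitor, and stem and megakaryocyte-erythroid progenitor genes had means on knockout whole leukemia array 2 of 5.66, 8.50 and 6.04, against 5.28 to 5.50, 8.51 to 9.62 and 5.81 to 6.58 on the other arrays. Alternatives left out each array in turn or changed the filter, normalization, arrays fitted, variance model, array weights, probe set choice, replicate block (number as a block) or offset.

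Pairing by replicate number was checked by correlating each array's deviations from its group mean. In wild type, whole leukemia and L-GMP arrays of the same number correlated at 0.363, 0.623 and 0.301, each above the other numbers, and in knockout at 0.133, 0.0905 and 0.432. For knockout L-GMP array 2 another number correlated higher, at 0.19. The labels state no pairing, and the populations were compared without it. Between genotypes the values ran from -0.104 to 0.187.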

Additional observations from a re-analysis of the deposited data

Results flagged for a closer look

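Klf1 and Rhd were marked because the genotypes moved in opposite directions in the 2 populations: each KO whole leukemia array lay above the WT mean and each KO L-GMP array below it. For Klf1 the KO difference in L-GMP less that in whole leukemia was -0.60 log2 (unadjusted p = 0.105, adjusted p = 1 by limma), and for Rhd it was -1.44 log2 (unadjusted p = 0.198, adjusted p = 1), so neither passed the test. Without KO whole leukemia array 2 the Klf1 value was -0.25 log2 and the Rhd value -0.29 log2 (SE 0.28).

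The 5 probe sets that carry several globin symbols were marked as signal outside the genes tested. Their highest KO whole leukemia values, each on array 2, were 11.50 and 13.04 log2 for the alpha-globin sets (17248263 and 17248276) and 12.54, 10.91 and 10.55 log2 for the beta-globin sets (17481232, 17494221 and 17494228). The highest WT values were 6.79, 10.76, 10.89, 9.43 and 5.46 log2, in the same order, and those were on WT whole leukemia array 1. For 17248263 array 2 was the 1 raised array, since KO whole leukemia array 3 was at 6.74.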

How the results depend on the processing

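None of the 28 genes passed the adjusted threshold in any of the 5 comparisons under any alternative run. In whole leukemia the median difference between genotypes, 1.38 log2, ran from 0.20 (without KO array 2) to 1.96 when single arrays were left out, and was 0.66 with array weights. The lowest adjusted p among the 28 there was 0.22, and for KO L-GMP against whole leukemia 0.103, each without KO whole leukemia array 1. In L-GMP the median of 0.15 ran from 0.03 (without KO array 2) to 0.19, and was 0.05 with array weights. For L-GMP against whole leukemia it was -0.03 in WT (-0.049 to 0.015) and -1.17 in KO (-1.81 to -0.10), and for the interaction -1.15 (-1.76 to -0.0495), in each case with single arrays left out. Single genes changed sign when 1 array was left out: Gata1 in whole leukemia (-0.0031 to 0.86) and in L-GMP (-0.00028 to 0.20), and Urod between populations in WT (-0.34 to 0.053). A replicate block by number changed no call. The 28 genes highest on KO whole leukemia array 2 became 25 with the stricter filter of 5.28 log2, which tests 25 of them. Car1, Epb42, Rhag, Cldn13, Car2, Trim10, Hemgn and Klf1 passed it only through that array. Their means on the other 11 arrays were 4.97 to 5.23, so this count is a description. The number of arrays, 3 a group, and the median SE of 0.70 log2 for these genes limit what could be detected.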

Other observations

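Slc48a1, which carries heme out of lysosomes, belongs to the other heme genes listed and did not follow KO whole leukemia array 2. Its log2 intensities were 8.22, 8.58 and 8.36 in WT whole leukemia and 9.06, 8.83 and 9.03 in KO whole leukemia. In L-GMP they were 8.62, 8.35 and 7.85 in WT and 8.92, 8.91 and 9.09 in KO. In both populations every KO array lay above every WT array, by 0.58 log2 (SE 0.18, adjusted p = 0.794 by limma) and 0.70 log2 (SE 0.18, adjusted p = 0.814). Neither passed the test.

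Bcl11a, the repressor of embryonic and fetal globin, measured 5.37, 5.27 and 6.29 in WT whole leukemia and 6.96, 6.85 and 6.16 in KO whole leukemia. In L-GMP it measured 5.05, 5.41 and 5.59 in WT and 6.40, 6.95 and 6.15 in KO. The differences were 1.01 (SE 0.32, adjusted p = 0.808 by limma) and 1.15 log2 (SE 0.32, adjusted p = 0.958), so neither passed the test. Lymphoid and dendritic cells also express Bcl11a.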
